A study of Mus musculus with 8 samples.

Results

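Endothelial marker genes were followed in mouse liver after delivery of the nuclear receptor LXR alpha and after treatment with its agonist. The set held 10 genes, chosen by symbol in the platform annotation: the sinusoidal scavenger receptors Lyve1, Stab1 and Mrc1, and the general endothelial genes Cd93, Cdh5, Esam, Pecam1, Kdr, Eng and Tek. All 10 were on the array, with 14 probe sets among 22626 without controls, and 13 of the 14 passed the filter on low values. Where a gene has more than 1 probe set, the first is the one with the higher mean intensity, and it represents the gene. The exception to the filter was the second Cdh5 probe set, which lay below the intensity floor of 7.50 on all 8 arrays.

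Liver total RNA was hybridised to Affymetrix arrays, 1 array per mouse and 2 mice per group. Every mouse, controls included, was an LDL receptor null on C57B6, fed a Western diet for 12 weeks, given an AAV2.8 vector at 10 weeks of age and studied at 8 months. The vector carried human LXR alpha or, as a control, GFP, under the human thyroxine binding globulin promoter, a liver specific promoter. Mice then had intraperitoneal injections for 3 days of T0901317, a synthetic LXR agonist, at 5 mg/kg, or of vehicle. The groups were LXR alpha with T0901317, LXR alpha with vehicle, GFP with T0901317, and GFP with vehicle.

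Liver sinusoids are lined by a fenestrated endothelium without a continuous basement membrane, which takes up macromolecules from portal blood through scavenger and endocytic receptors. Lyve1 encodes a hyaluronan receptor, Stab1 the scavenger receptor stabilin-1, and Mrc1 the mannose receptor; macrophages can express all 3. The other genes serve endothelium in general: Cdh5 encodes VE-cadherin of adherens junctions, Esam and Pecam1 encode junctional adhesion molecules, Kdr the main signalling receptor for VEGF, Tek the angiopoietin receptor Tie2, Eng the TGF-beta and BMP co-receptor endoglin, and Cd93 a lectin-like transmembrane receptor. In whole liver RNA, fewer cells of a type and less RNA per cell cannot be told apart.

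The stretches before the start site are shown for 1 pair of scavenger receptor genes, Stab1 and Mrc1, and 1 general gene, Eng. RefSeq start sites on GRCm38.p6 gave an entry for 5 of the 10 genes (Stab1, Mrc1, Kdr, Eng and Tek), and the sequences shown are those of which at least 200 bases lay outside the annotated gene. Capitals mark AGGAAG or its reverse complement CTTCCT, a longer form of the core bound by ETS factors. That family includes endothelial and myeloid regulators, and other forms of the core were not marked or counted.
Stab1 (chr14:31168652-31168891, minus strand): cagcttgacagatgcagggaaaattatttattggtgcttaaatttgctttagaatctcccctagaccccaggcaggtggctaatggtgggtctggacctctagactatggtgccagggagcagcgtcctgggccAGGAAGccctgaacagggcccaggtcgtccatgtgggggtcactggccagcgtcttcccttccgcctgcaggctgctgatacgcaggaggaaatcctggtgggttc
Mrc1 (chr2:14229164-14229413, plus strand): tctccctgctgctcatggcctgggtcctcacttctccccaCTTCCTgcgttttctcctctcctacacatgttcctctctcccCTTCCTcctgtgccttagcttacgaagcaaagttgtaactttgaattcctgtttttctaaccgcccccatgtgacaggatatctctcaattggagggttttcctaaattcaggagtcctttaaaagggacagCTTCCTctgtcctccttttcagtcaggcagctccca
Eng (chr2:32646345-32646594, plus strand): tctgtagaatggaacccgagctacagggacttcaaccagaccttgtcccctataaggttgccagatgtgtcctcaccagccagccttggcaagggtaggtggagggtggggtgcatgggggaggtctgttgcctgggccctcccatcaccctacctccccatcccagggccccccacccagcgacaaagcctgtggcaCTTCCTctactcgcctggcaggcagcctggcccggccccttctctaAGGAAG
AGGAAG or CTTCCT was present 3 times before Mrc1, 2 times before Eng and 1 time before Stab1. Of 32851 RefSeq promoter windows of 250 bases, 29.5% held AGGAAG on either strand. The nuclear receptor half-site AGGTCA, or its reverse complement TGACCT, was in none of the 3 stretches and in 14.02% of all windows. These are matches of letters in a short window.

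Libraries differed in ways that touch several results. The ratio of 3' to 5' signal of the beta-actin control was 2.75 and 36.3 with T0901317 and 2.61 and 3.08 with vehicle in LXR alpha livers, and 7.56 and 11.04 with T0901317 and 2.21 and 2.08 with vehicle in GFP livers, so 3 of 4 T0901317 arrays lay above every vehicle array. LXR alpha vehicle liver 2 stood apart in markers of several cell types: its mean centred log2 value over 22 macrophage genes was -1.54, against -0.06 in its partner. Array medians of log2 intensity lay within 0.141 of each other.

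T0901317 was accompanied by higher Lyve1 and by higher values on the first Cd93 probe set. Averaged over both transgenes, both Lyve1 probe sets rose, by 2.05 and 1.35 on the log2 scale (4.14-fold and 2.54-fold), and the first Cd93 probe set rose by 1.31 (2.48-fold). These were 3 of 13 member probe sets called by limma at an adjusted p under 0.05, where 0.568% of all 15838 tested probe sets were called. No other member probe set passed.

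Lyve1 gave intensities of 338 and 290.3 with T0901317 and 56.9 and 31.2 with vehicle in LXR alpha livers, and 268 and 137 with T0901317 and 72.5 and 95.04 with vehicle in GFP livers (first probe set). Every T0901317 liver lay above every vehicle liver. The averaged log2 difference was 2.05 (SE 0.29, limma adjusted p = 0.0489), with a 95% interval of 1.36 to 2.74. Within LXR alpha livers the difference was 2.89 (SE 0.41, 7.42-fold, limma adjusted p = 0.124), and within GFP livers it was 1.21 (SE 0.41, 2.31-fold, limma adjusted p = 0.303) and 0.72 without GFP T0901317 liver 1.

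The other Lyve1 probe set, annotated to the same accession, kept the groups apart in the same way. It gave 167 and 158 with T0901317 and 36.6 and 39.8 with vehicle in LXR alpha livers, and 119 and 76.2 with T0901317 and 54.5 and 72.1 with vehicle in GFP livers. Its averaged difference was 1.35 (SE 0.19, limma adjusted p = 0.0489). The hyaluronan receptor was thus measured by a pair of probe sets, with all 4 T0901317 livers above all 4 vehicle livers on each.

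Cd93 gave 48.9 and 36.5 with T0901317 and 13.1 and 14.1 with vehicle in LXR alpha livers, and 45.1 and 41.5 with T0901317 and 22.3 and 21.4 with vehicle in GFP livers (first probe set). The 4 T0901317 livers lay above the vehicle livers, and within vehicle livers the LXR alpha pair lay below the GFP pair. The averaged difference was 1.31 (SE 0.13, limma adjusted p = 0.025). The second Cd93 probe set gave 11.5 to 12.5 over T0901317 livers and 12.9 to 14.6 over vehicle livers. Its treatments thus did not overlap either, with T0901317 livers lower. The averaged difference of that probe set was -0.20 (SE 0.08, limma adjusted p = 0.193), opposite in sign to that of the first. No share of all tested probe sets lower without overlap is given here.

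These calls depended on the full set of arrays. The Lyve1 calls were lost without any 1 of the 7 arrays other than LXR alpha T0901317 liver 1, with adjusted p of up to 0.191, and the Cd93 call without any 1 of the 4 vehicle or the 2 GFP T0901317 arrays, with adjusted p of up to 0.179; the differences stayed between 1.18 and 2.29 for Lyve1 and between 1.21 and 1.42 for Cd93. The T0901317 array whose beta-actin ratio lay within the vehicle range (LXR alpha T0901317 liver 1) had the highest Lyve1 and Cd93 of all arrays on these 3 probe sets. With the log2 beta-actin ratio as a covariate the averaged differences were 2.27 and 1.43 for Lyve1 and 1.53 for Cd93, and none was called (limma adjusted p of 0.114, 0.114 and 0.0794).

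**Figure D1:**
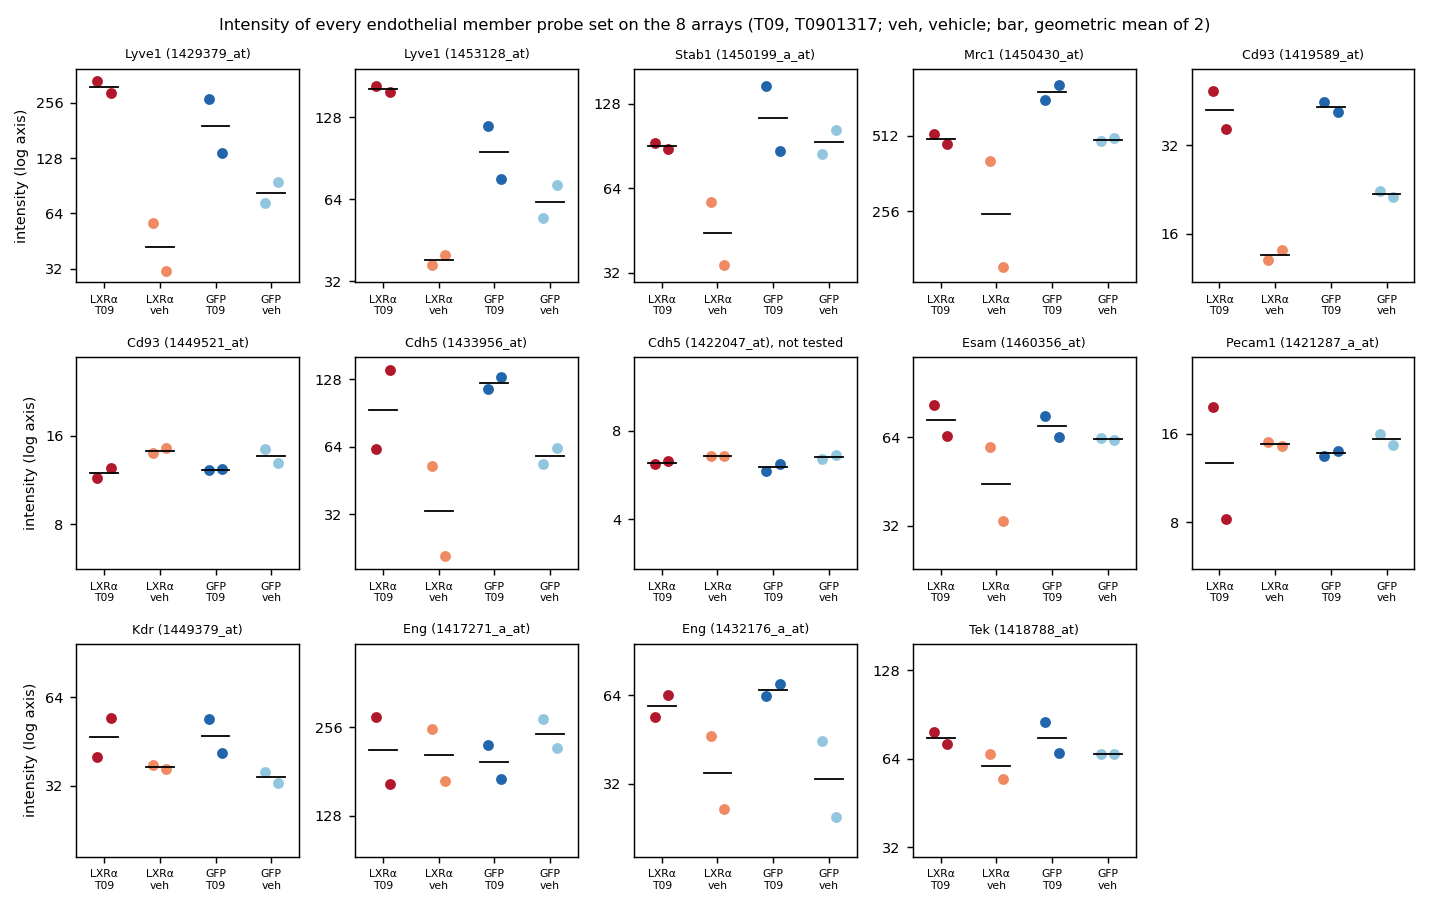
Intensity (log axis) of each of the 14 member probe sets on the 8 arrays, by group; points are arrays and bars the geometric mean of 2. Both Lyve1 probe sets and the first Cd93 probe set lie higher on all 4 T0901317 arrays than on any vehicle array, while the second Cdh5 probe set stays below the floor of 7.50.

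The remaining scavenger receptors were also higher on average with T0901317, by amounts that did not pass. Stab1 gave 93.1 and 88.2 with T0901317 and 57.3 and 34.1 with vehicle in LXR alpha livers, and 148 and 87.2 with T0901317 and 85.0 and 103 with vehicle in GFP livers. The 2 LXR alpha groups did not overlap, whereas the GFP groups did. Its averaged difference was 0.66 (SE 0.25, limma adjusted p = 0.188), made up of 1.04 (SE 0.35) within LXR alpha livers and 0.28 (SE 0.35) within GFP livers. Without LXR alpha vehicle liver 2 the difference within LXR alpha livers was 0.66, and with 1 array left out that within GFP livers ranged from -0.10 to 0.66.

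Mrc1 gave 522 and 477 with T0901317 and 405 and 154 with vehicle in LXR alpha livers, and 714 and 822 with T0901317 and 489 and 500.3 with vehicle in GFP livers. T0901317 livers lay above vehicle livers within each transgene, although the lower LXR alpha T0901317 liver lay below both GFP vehicle livers. The averaged difference was 0.82 (SE 0.30, limma adjusted p = 0.188), and 0.47 without LXR alpha vehicle liver 2. Within LXR alpha livers it was 1.00 (SE 0.43), and 0.30 without that liver.

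Among general endothelial genes, VE-cadherin had the next largest averaged difference after Cd93. The first Cdh5 probe set gave 62.5 and 141 with T0901317 and 52.5 and 20.9 with vehicle in LXR alpha livers, and 116 and 131 with T0901317 and 53.9 and 63.3 with vehicle in GFP livers. The lowest T0901317 liver, LXR alpha T0901317 liver 1, lay just under the highest vehicle liver, so the treatments overlapped. The averaged difference was 1.29 (SE 0.36, limma adjusted p = 0.125), and it was 0.72 with the beta-actin ratio as a covariate.

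Eng was split between its probe sets. The first gave 279 and 164 with T0901317 and 252 and 168 with vehicle in LXR alpha livers, and 224 and 172 with T0901317 and 273 and 217 with vehicle in GFP livers. The second, annotated to a different record, gave 53.8 and 64.0 with T0901317 and 46.6 and 26.2 with vehicle in LXR alpha livers, and 63.6 and 70.1 with T0901317 and 44.6 and 24.7 with vehicle in GFP livers. Endoglin therefore showed overlapping groups on one probe set, with an averaged difference of -0.13 (SE 0.25, limma adjusted p = 0.751), and separate treatments on the other, with 0.88 (SE 0.26, limma adjusted p = 0.136).

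Kdr, Esam and Tek had small averaged differences with no overlap between treatments. Kdr gave 40.3 and 54.5 with T0901317 and 37.8 and 36.5 with vehicle in LXR alpha livers, and 54.2 and 41.4 with T0901317 and 35.6 and 32.9 with vehicle in GFP livers. Esam ranged from 64.2 to 82.7 over T0901317 livers and from 33.2 to 63.5 over vehicle livers, and Tek from 66.8 to 85.6 over T0901317 livers and from 54.8 to 66.6 over vehicle livers. The VEGF receptor, the adhesion molecule and Tie2 differed by 0.40 (SE 0.16), 0.44 (SE 0.22) and 0.26 (SE 0.15), with limma adjusted p of 0.199, 0.253 and 0.316. Esam differed by 0.23 without LXR alpha vehicle liver 2, and Tek by 0.17 without GFP T0901317 liver 1.

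Pecam1 gave 19.7 and 8.21 in LXR alpha T0901317 livers, against 13.4 to 15.96 in the other 6 livers, so the highest and the lowest array belonged to one group. Its averaged difference was -0.19 (SE 0.25, limma adjusted p = 0.641), with a 95% interval of -0.78 to 0.40. Without LXR alpha T0901317 liver 1 it was -0.50 and passed (limma adjusted p = 0.0175), and without LXR alpha T0901317 liver 2 it was 0.13.

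With 1 probe set per gene, 8 of 10 members had a positive averaged difference, with a median of 0.55, where all tested probe sets had a median of -0.04. The treatments did not overlap for 5 of the 10, all higher with T0901317 (Lyve1, Cd93, Esam, Kdr and Tek), where 8.2% of all tested probe sets were higher without overlap. Within LXR alpha livers 8 of the 10 were higher without overlap, against 20% of all tested probe sets, and within GFP livers 7 were, against 23.2%.

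**Figure D2:**
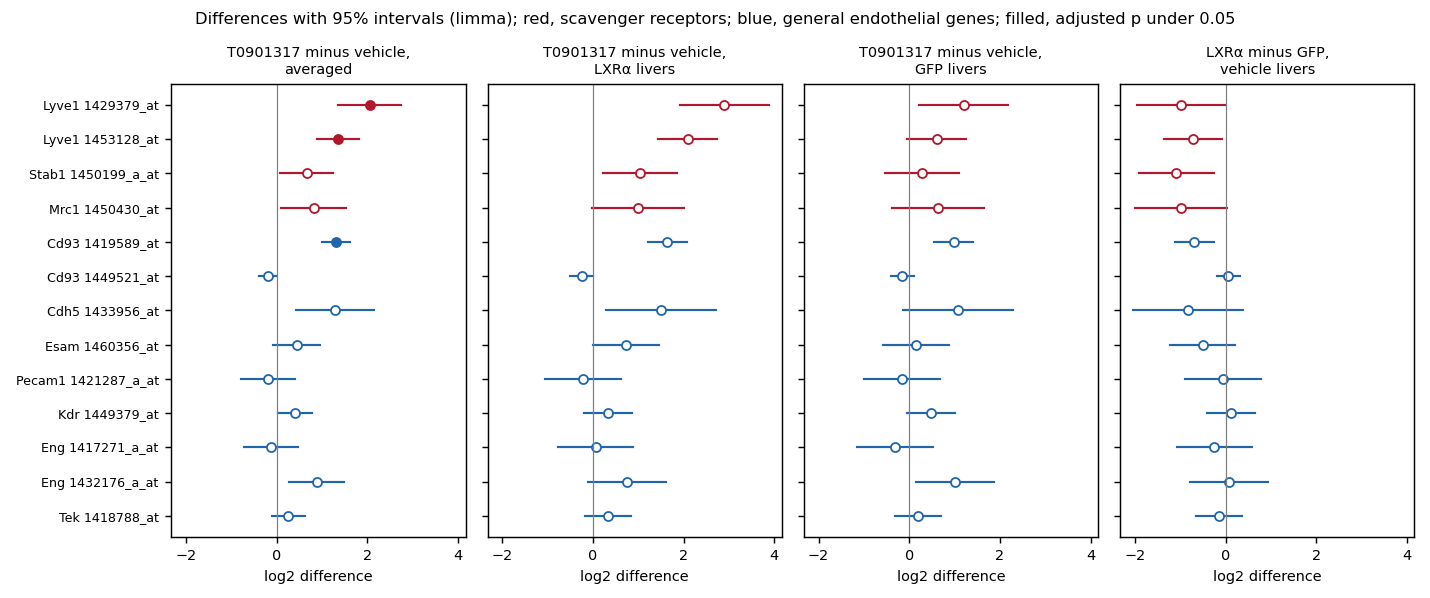
Log2 differences with 95% intervals for the 13 tested member probe sets in 4 comparisons; red marks scavenger receptors, blue general endothelial genes, and filled points an adjusted p under 0.05. Filled points are the Lyve1 pair at 2.05 and 1.35 and Cd93 at 1.31, all in the averaged comparison of T0901317 with vehicle.

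The transgene without agonist went with lower values of the scavenger receptors. In LXR alpha vehicle against GFP vehicle livers, log2 differences were -1.08 for Stab1 (SE 0.35), -0.99 for Mrc1 (SE 0.43), and -0.98 and -0.71 for the Lyve1 probe sets (SE 0.41 and 0.27), with limma adjusted p between 0.861 and 0.963. None of 13 member probe sets was called, with 3 at an unadjusted p under 0.05 (Stab1, the second Lyve1 and the first Cd93 probe set). Over all tested probe sets, limma called 0.00631% here and gave 5.15% an unadjusted p under 0.05. Both LXR alpha vehicle livers lay below both GFP vehicle livers for 6 of the 10 genes, namely the 3 scavenger receptors, Cd93, Cdh5 and Esam, where 13.5% of all tested probe sets were lower without overlap.

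General endothelial genes were spread more widely in that comparison. Cdh5 differed by -0.82 (SE 0.51), Cd93 by -0.69 (SE 0.18) and Esam by -0.51 (SE 0.30), while Kdr differed by 0.12 (SE 0.22), with both LXR alpha livers above both GFP livers, as for 30.9% of all tested probe sets. The median was -0.99 over the 3 scavenger receptors and -0.24 over the 7 general genes, where all tested probe sets had a median of 0.05.

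Several of these differences shrank without LXR alpha vehicle liver 2. Without it the differences were -0.71 for Stab1, -0.29 for Mrc1, -0.54 for the first Lyve1 probe set, -0.15 for Cdh5 and -0.09 for Esam, whereas the second Lyve1 probe set (-0.78) and Cd93 (-0.74) were as low without it.

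With agonist present in both arms, the transgene gave no common direction. Lyve1 was higher in LXR alpha T0901317 than in GFP T0901317 livers, by 0.71 (SE 0.41) and 0.77 (SE 0.27) on its probe sets. With 1 array left out these ranged from 0.22 to 1.196 and from 0.45 to 1.09, lowest without GFP T0901317 liver 2. Mrc1 stood on the other side, at -0.62 (SE 0.43, limma unadjusted p = 0.193), with both LXR alpha livers below both GFP livers. No share of all tested probe sets without overlap is given here for these groups. limma called 0 of 15838 probe sets between the agonist groups, while 355 (2.24%) had an unadjusted p below 0.05, among them the second Lyve1 probe set. The limma adjusted p of these members rounded to 1.00.

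The effect of T0901317 was larger in LXR alpha than in GFP livers for Lyve1, by 1.69 (SE 0.59) and 1.48 (SE 0.39) on the log2 scale, but the limma interaction test was not passed (adjusted p = 1.00 and 0.957). The same interaction was 0.76 (SE 0.49) for Stab1 and 0.66 (SE 0.26) for the first Cd93 probe set, each with a limma adjusted p of 1.00, and for Stab1 it ranged from 0.38 to 1.14 with 1 array left out. limma called 0.00631% of all probe sets for the interaction and gave 4.77% an unadjusted p under 0.05, as it did 3 member probe sets, namely both of Lyve1 and the first of Cd93. Both comparisons within a transgene had no called member of 13, where 0.0253% of all tested probe sets were called in LXR alpha livers and none of 15838 (0%) in GFP livers. At an unadjusted p under 0.05, limma gave 2083 probe sets in GFP livers (13.2%). After quantile normalization the first Cd93 probe set was called in LXR alpha livers (1.71, limma adjusted p = 0.0426).

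Scavenger receptors were set against general endothelial genes through class means, in which each gene was centred on its mean over the 8 arrays. The scavenger mean was 0.62 and 0.48 with T0901317 and -0.59 and -1.60 with vehicle in LXR alpha livers, and 0.88 and 0.37 with T0901317 and -0.20 and 0.04 with vehicle in GFP livers. The general mean was 0.31 and 0.12 with T0901317 and -0.19 and -0.62 with vehicle in LXR alpha livers, and 0.36 and 0.18 with T0901317 and -0.04 and -0.11 with vehicle in GFP livers. Both classes were thus lowest in LXR alpha vehicle livers. The scavenger class ranged further, as a mean over 3 genes set against a mean over 7. The part of the number of genes in that range was not tested.

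The gap, scavenger minus general mean, was 0.31 and 0.36 with T0901317 and -0.40 and -0.97 with vehicle in LXR alpha livers, and 0.53 and 0.19 with T0901317 and -0.15 and 0.14 with vehicle in GFP livers. Between LXR alpha T0901317 and LXR alpha vehicle livers the gap differed by 1.02, against a pooled SD of 0.29 between replicates (n = 2 per group), and it differed by 0.73 without LXR alpha vehicle liver 2. Between LXR alpha vehicle and GFP vehicle livers it differed by -0.68 (pooled SD 0.32, n = 2 per group), and by -0.40 without that liver. The groups did not overlap in either comparison.

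In GFP livers the gap differed by 0.36 between T0901317 and vehicle (pooled SD 0.22, n = 2 per group), also without overlap. Between LXR alpha T0901317 and GFP T0901317 livers it differed by -0.03 (pooled SD 0.17, n = 2 per group), within the replicate spread. Members were chosen with results known, so the class means carry no p-value; the gap with T0901317 rested largely on Lyve1. Without Lyve1 it was 0.39 in LXR alpha livers and 0.11 in GFP livers, and -0.42 between the T0901317 groups. In LXR alpha livers it was 1.32 without Stab1 and 1.34 without Mrc1, and between the T0901317 groups it was 0.24 without Mrc1. The gap between vehicle groups stayed between -0.70 and -0.65 without any 1 of the 3.

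**Figure D3:**
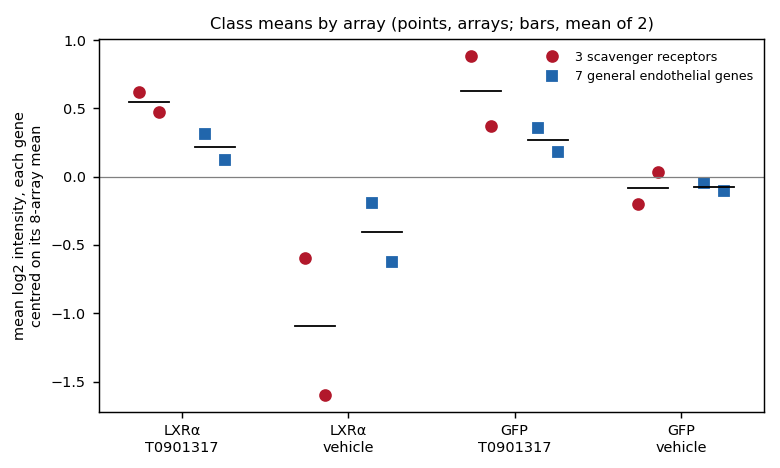
Mean centred log2 intensity of 3 scavenger receptor genes (red) and 7 general endothelial genes (blue) on each array, by group; points are arrays and bars the mean of 2. The scavenger points of LXR alpha vehicle livers (-0.59 and -1.60) lie lowest, and on all 4 T0901317 arrays the scavenger mean lies above the general mean.

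Further endothelial genes, listed with earlier results known, had no call in any comparison. Of 13 tested sinusoidal genes, 12 were higher with T0901317 on average, with a median of 0.25, where all tested probe sets had a median of -0.04. Flt4, the VEGFR3 receptor, led with 1.32 (SE 0.29, limma adjusted p = 0.0842); it gave 103 and 235 with T0901317 and 78.4 and 55.6 with vehicle in LXR alpha livers, and 173 and 221 with T0901317 and 68.5 and 79.3 with vehicle in GFP livers. The lowest Flt4 value with T0901317, 103, was that of LXR alpha T0901317 liver 1, whose beta-actin ratio lay within the vehicle range. The part of that ratio in the Flt4 difference was not tested. Gpr182, an endothelial receptor, differed by 0.86 (SE 0.24) and Clec1b by 0.81 (SE 0.42). Clec1b gave 444 and 488 with T0901317 and 379 and 96.0 with vehicle in LXR alpha livers, lowest in LXR alpha vehicle liver 2. In GFP livers it gave 542 and 567 with T0901317 and 347 and 564 with vehicle. Stab2, the stabilin relative of Stab1, was chosen after its values were seen and gave 211 and 188 with T0901317 and 203 and 172 with vehicle in LXR alpha livers, and 259 and 189 with T0901317 and 236 and 178 with vehicle in GFP livers, with all groups overlapping.

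Of 26 other general endothelial genes, 14 were higher and 12 lower with T0901317, with a median of 0.03. Their largest averaged differences were those of Ptprb, the VE-PTP phosphatase, at 1.14 (SE 0.29), Vwf, von Willebrand factor, at 0.99 (SE 0.38), and Fli1, an ETS transcription factor, at 0.86 (SE 0.19), with limma adjusted p between 0.0902 and 0.198. Vwf gave 11.5 in LXR alpha T0901317 liver 1, whose beta-actin ratio lay within the vehicle range. It gave 17.8 to 35.3 in the other T0901317 livers and 7.64 to 14.02 with vehicle. Ptprb gave 217 in that liver, 277 to 466 in the other T0901317 livers and 115 to 187 with vehicle. Fli1 gave 41.3, 31.1 to 45.3 and 12.3 to 31.1 in the same order. The part of the beta-actin ratio in these differences was not tested. In LXR alpha vehicle against GFP vehicle livers 18 of the 26 were lower, with a median of -0.18, led by Plvap, a diaphragm protein of endothelial fenestrae, at -1.40 (SE 0.33, limma adjusted p = 0.647). Of the 13 sinusoidal genes 8 were lower there, with a median of -0.16. Without LXR alpha vehicle liver 2 the medians were -0.056 over the general list, with 15 lower, and 0.088 over the sinusoidal list, with 5 lower.

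Ligands of the members' receptors were measured on the same arrays. Vegfa, the ligand of Kdr, gave 68.8 and 69.5 with T0901317 and 52.1 and 45.5 with vehicle in LXR alpha livers, and 109.7 and 113 with T0901317 and 29.2 and 42.4 with vehicle in GFP livers. T0901317 livers lay above vehicle livers throughout, with an averaged difference of 1.08 (SE 0.16, limma adjusted p = 0.0501), just short of the threshold. Averaged differences were 0.37 for Vegfb (SE 0.14), 0.16 for Vegfc (SE 0.20) and 0.06 for the Tek ligand Angpt2 (SE 0.13). They were 0.36 for the BMP9 gene Gdf2 (SE 0.14), whose product binds endoglin, and -0.09 for Tgfb1 (SE 0.08). None of these passed. Vegfb gave 110 and 104 with T0901317 and 55.0 and 65.9 with vehicle in LXR alpha livers. In GFP livers it gave 88.2 and 80.5 with T0901317 and 89.4 and 89.4 with vehicle.

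Genes nearest to single members in their profile over the 8 arrays were found among 3584 genes that ranged over at least 1 log2 unit, by the root mean square difference of centred log2 values. For Stab1 they were Fhl1 (0.17), Fli1 (0.18), Vdac1 (0.20) and Col14a1 (0.22). For Cdh5 they were Actn1 (0.18), Pdk1 (0.22), Slc25a37 (0.22) and Ces2g (0.23). For Lyve1 the nearest were farther off, at 0.33 for Ehhadh, 0.39 for Thumpd3, 0.41 for Fundc2 and 0.44 for Cd24a.

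Markers of other liver cells moved with the members in some comparisons. In LXR alpha vehicle livers all 22 tested macrophage and Kupffer cell genes were lower than in GFP vehicle livers, with a median of -1.22 and none called. Without LXR alpha vehicle liver 2, 19 of the 22 were lower, with a median of -0.54. Summed over the 22 genes, intensity was 14091 and 6189 in LXR alpha vehicle livers and 19444 and 20703 in GFP vehicle livers. Single genes of the list differed in how low they were, and the following were chosen after their values were seen. Clec4f gave 381 and 279 in LXR alpha vehicle livers and 457 and 431 in GFP vehicle livers. Cd68 gave 64.3 and 6.85 in LXR alpha vehicle livers and 168 and 213 in GFP vehicle livers. Fcgr1 gave 34.1 and 7.48 in LXR alpha vehicle livers and 84.9 and 69.99 in GFP vehicle livers. In LXR alpha vehicle liver 2, Cd68 and Fcgr1 thus lay below the intensity floor, and Clec4f lay well above it. Of 16 stellate cell and matrix genes 15 were lower there, with a median of -0.84, and without that liver 14 were, with a median of -0.80. Their summed intensity was 2050.3 and 1714 in LXR alpha vehicle livers against 4905 and 3145 in GFP vehicle livers. The part of these cells in the members' differences, here and with T0901317, was not tested.

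With T0901317 in GFP livers the macrophage list was split, with 8 genes higher and 14 lower and a median of -0.12. Summed intensity of that list with T0901317 was 14152 and 23522, against 19444 and 20703 with vehicle. Lyve1, Mrc1 and the first Cd93 probe set were higher in GFP livers without overlap, as were 23.2% of all tested probe sets. In LXR alpha livers 19 of the 22 were higher with T0901317, with a median of 0.89, as were 15 of 16 stellate and matrix genes, with a median of 1.37. Mean centred log2 values over the macrophage list there were 0.17 and -0.12 with T0901317 and -0.06 and -1.54 with vehicle. Most of that macrophage difference thus lay in LXR alpha vehicle liver 2. The stellate and matrix values were 0.51 and 0.45 with T0901317 and -0.64 and -0.92 with vehicle. Of 12 hepatocyte genes 9 were lower with T0901317 on average, with a median of -0.12, led by Asgr1 at -0.94 (SE 0.22, limma adjusted p = 0.0926), while Cps1 was higher by 0.49 (SE 0.13, limma adjusted p = 0.116). The 9 platelet and leukocyte genes, from cells that can express Pecam1, had a median of -0.13. Of 4 erythroid genes all were lower with T0901317, with a median of -0.19. None of these genes was called by limma in any of the 7 comparisons.

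**Figure D4:**
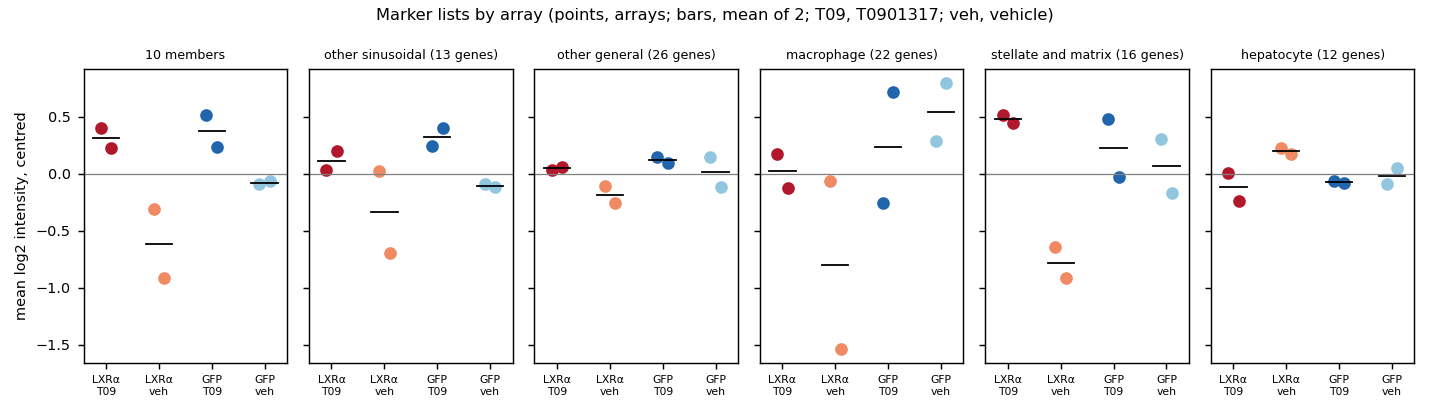
Mean centred log2 intensity of 6 marker lists on each array, by group; points are arrays and bars the mean of 2. LXR alpha vehicle liver 2 is the lowest array for the members (-0.92), the other sinusoidal genes (-0.69) and the macrophage genes (-1.54). It is also the lowest for the other general genes (-0.26) and the stellate and matrix genes (-0.92). Hepatocyte genes stay between -0.23 and 0.23.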

How the data were processed

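The authors deposited 1 intensity per probe set and array on a linear scale, read from the range and skew of the values; neither the summarising tool nor the scaling was given in the sources used here. Groups came from the labels, with 2 arrays in each of 4 groups, each described there as from 1 mouse. Of 22690 probe sets, 64 controls stayed out. Symbols were updated through RefSeq by Entrez ID. Values under 7.50, the 20th percentile, were set to it, and all were log2-transformed, with the deposited scaling kept, and probe sets with a mean above the 30th percentile were tested (15838, for 9359 genes).

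The test was limma 3.58.1 (R 4.3.3): 4 group means on 8 arrays, eBayes with an intensity trend (4 residual and 2.93 prior degrees of freedom), Benjamini-Hochberg over all tested probe sets, called at an adjusted p under 0.05. SEs are moderated. Genes stand by the tested probe set of highest mean. P-values reflect only the spread between arrays, whose small number limits precision. The fit was tested on simulated data.

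The members, the lists and the rule for named genes (all members, their receptors' ligands, up to 3 genes per list, the 4 nearest profiles) were chosen with earlier results of these data known. Replicate numbers did not pair the samples. Alternatives covered floor, scaling, filter, spread, block, array quality and single arrays. Figures and sequence counts used Python 3.11.15.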

Additional observations from a re-analysis of the deposited data

Results flagged for a closer look

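Both Lyve1 probe sets stood on opposite sides under the transgene: LXR alpha livers lay below GFP livers with vehicle (-0.98 and -0.71 on the log2 scale) and above them with T0901317 (0.71 and 0.77), with no overlap of the pairs on either side. With vehicle, 13.5% of all tested probe sets were lower without overlap, and no such share is given here for the T0901317 pairs. The 2 probe sets are annotated to the same record, so they are not separate instances. The difference between the transgene effects with T0901317 and with vehicle was 1.69 and 1.48 and did not pass when tested (limma interaction, adjusted p = 1.00 and 0.957). Without LXR alpha vehicle liver 2 it was 1.25 and 1.54. The difference with T0901317 was 0.22 and 0.45 without GFP T0901317 liver 2. With 2 arrays per group no array could be set against its group by an outlier test.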

How the results depend on the processing

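With 2 mice per group, 1 array decides most calls. The count of 3 called member probe sets for averaged T0901317 became 1 after quantile normalization, 1 with the replicate block (Cd93), 0 without a filter on low values, 0 with the beta-actin ratio as a covariate, and 0 to 5 when an array was left out (5 without LXR alpha T0901317 liver 1). In LXR alpha livers the count for T0901317 was 1 after quantile normalization, 2 at an adjusted p under 0.10, and 0 to 3 when an array was left out (3 without LXR alpha T0901317 liver 1). The other counts were 0 under every alternative that could be run. Fits without the 3 arrays of high beta-actin ratio left no GFP T0901317 array, so they gave no averaged value; in LXR alpha livers they gave 3.00 and 2.12 for Lyve1 and 1.85 for Cd93. With T0901317, the gap between classes moved to 0.39 in LXR alpha livers, 0.11 in GFP livers and -0.42 between the T0901317 groups without Lyve1. It moved to 1.32 in LXR alpha livers without Stab1, and without Mrc1 to 1.34 there and 0.24 between the T0901317 groups. Leaving out Lyve1 or Stab1, and the marker lists without LXR alpha vehicle liver 2, were chosen after seeing the data.

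Directions turned for Eng, Pecam1 and Stab1, none called on all 8 arrays; Pecam1 was called without LXR alpha T0901317 liver 1 (adjusted p = 0.0175 on average and 0.0302 in LXR alpha livers). The first Eng probe set turned to -0.11 in LXR alpha livers after quantile normalization, and with the beta-actin covariate to 0.15 in GFP livers and 0.30 on average. With arrays left out it ranged from -0.32 to 0.44 in LXR alpha livers and from -0.32 to 0.061 on average. Pecam1 turned to 0.41 in LXR alpha livers without the 3 arrays, and with the covariate to 0.38 in LXR alpha livers, 0.53 in GFP livers and 0.45 on average. With arrays left out it ranged from -0.85 to 0.41 in LXR alpha livers and from -0.50 to 0.13 on average, and Stab1 from -0.10 to 0.66 in GFP livers. The cause was not tested. Replicate numbers gave correlations of deviations between -0.14 and 0.25, so they share only a number.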
